A study of Mus musculus with 20 samples.

Results

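Transcript levels of 6 arginine methyltransferase genes other than Prmt5 were followed in the cells of leukemic mice: Prmt1, Prmt2, Prmt3, Prmt6, Prmt7 and Carm1. They were taken by name from the enzyme family, with earlier results of these data known, and make up 6 of the 31053 genes in each count matrix. Arginine methyltransferases move methyl groups from S-adenosylmethionine to arginine side chains of histones, splicing factors and ribosomal proteins. Type I enzymes (Prmt1, Prmt2, Prmt3, Prmt6 and Carm1) leave asymmetric dimethylarginine, the type II enzyme Prmt5 leaves the symmetric form, and the type III enzyme Prmt7 adds a single methyl group. In lymphocytes the family is known for roles in B-cell activation, splicing and cell division.

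The 20 single-cell RNA-seq (scRNA-seq) libraries came from 13 diseased mice at early removal criteria (ERC), all labelled C57BL/6N although the study's methods name C57BL/6J for the double transgenic cross, and each library of a group came from a separate mouse, so p-values measure the spread between mice. Spleens came from 4 Eµ-TCL1 mice, 5 Eµ-PRMT5 mice and 4 mice with both transgenes (Eµ-PRMT5/TCL1), and submandibular lymph nodes from 3 of the Eµ-TCL1 and all 4 Eµ-PRMT5/TCL1 mice. Each transgene is a human cDNA, of PRMT5 or of the oncogene TCL1, placed under an immunoglobulin heavy chain enhancer that is active in B cells. Eµ-TCL1 mice are a model of chronic lymphocytic leukemia (CLL), while Eµ-PRMT5 mice, per the study, varied in which of their B, T and myeloid cells were expanded. All groups carry at least 1 transgene, and mouse ages were not used here. Per the study, live cells were captured without selecting a type, so T and myeloid cells were read from the same libraries as the B cells. Eµ-PRMT5 spleen 3 bears in its title the number that the study's methods give to a founder of the line, and the titles of Eµ-PRMT5/TCL1 spleen 1 and lymph node 2, from 1 mouse, add RT, which the labels do not explain. The human transgenes need not be counted at the mouse genes, so mouse Prmt5 is given only for comparison.

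Each cell was called B, T or myeloid from the UMI counts (unique molecular identifiers, 1 per captured RNA molecule) of marker genes. Of 87773 cells, 41455 were B, 31626 T and 5952 myeloid cells. Left out were 6129 with at least 2 markers of more than 1 class and 2611 with fewer than 2 markers of every class. In B cells of the spleens the 6 B markers, among them Cd79a, summed to between 1067 and 6187 CPM (UMIs of a gene per 1000000 UMIs of that class). The same sum lay between 11.9 and 96.1 CPM in T cells and between 2.98 and 34.1 CPM in myeloid cells. These markers were also used to call the classes, so the sums describe the calls and do not check them. Libraries held 692 to 8164 cells and 9348094 to 72440894 UMIs, and no pair of libraries shared more than 1.34% of the smaller one's cell barcodes. Eµ-PRMT5 spleen 4 stood apart: its median B cell held 17801.5 UMIs (4317 to 10285 in the other spleens), and its B markers summed to 1067 CPM (3370 to 6187 in the others). After every cell was thinned to 2000 UMIs, 52.8% of its B cells carried genes of the G2/M phase of the cell cycle, against 0.363% to 17.99% in the other 12 spleens. Without thinning the shares ran from 0.363% to 75.5%. The main results that rest on this library are also given without it. It had 42 T cells, too few for the T-cell comparisons, which need 50 cells.

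The 6 genes lie apart in the genome (GRCm38, GENCODE vM21). Prmt1 (ENSMUSG00000109324), the main asymmetric methyltransferase of most cells, is on chromosome 7 from 44975989 to 44986568, and no other annotated gene overlaps it. Prmt3 (ENSMUSG00000030505), which methylates the ribosomal protein Rps2, is on the same chromosome from 49778346 to 49858265, where a noncoding gene on the other strand, Gm26856, is counted too. Prmt2 (ENSMUSG00000020230), a weakly active enzyme that acts as a coactivator of nuclear receptors, is on chromosome 10 from 76207222 to 76237865. Prmt6 (ENSMUSG00000049300), which methylates arginine 2 of histone H3, is on chromosome 3 from 110246109 to 110250998 and overlaps the antisense gene C130013H08Rik. Prmt7 (ENSMUSG00000060098), the monomethylating enzyme, is on chromosome 8 from 106210936 to 106252794 and overlaps Smpd3 and Gm26786 on the other strand. Carm1 (ENSMUSG00000032185), a coactivator that methylates histone H3 and splicing factors, is on chromosome 9 from 21546894 to 21592623 and overlaps Yipf2 on the other strand. Counting follows the 3′ end of transcripts, and whether it used strand is not given in the sources used here, so values of the overlapping genes carry that uncertainty.

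Promoter sequences of 5 of the 6 genes were matched in RefSeq (GRCm38.p6, from 250 bases before to 50 bases after the transcript start), and Carm1 was not matched. The promoters of Prmt1, Prmt2 and Prmt3 are shown because the genes carry the state results that follow: Prmt1 and Prmt3 rose most in cycling myeloid cells, and Prmt2 fell in lymphocytes in the G2/M phase. Capitals mark the E-box CACGTG, a palindrome that reads the same on both strands and was chosen, like the motifs named after the sequences, after the values were seen.
Prmt1 (chr7:44986371-44986670, minus strand): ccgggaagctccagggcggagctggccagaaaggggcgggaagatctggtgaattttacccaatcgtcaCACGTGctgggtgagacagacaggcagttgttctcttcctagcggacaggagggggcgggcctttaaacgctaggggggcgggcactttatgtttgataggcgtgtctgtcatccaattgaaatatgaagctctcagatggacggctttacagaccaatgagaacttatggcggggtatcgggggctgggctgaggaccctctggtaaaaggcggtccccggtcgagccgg
Prmt3 (chr7:49778108-49778407, plus strand): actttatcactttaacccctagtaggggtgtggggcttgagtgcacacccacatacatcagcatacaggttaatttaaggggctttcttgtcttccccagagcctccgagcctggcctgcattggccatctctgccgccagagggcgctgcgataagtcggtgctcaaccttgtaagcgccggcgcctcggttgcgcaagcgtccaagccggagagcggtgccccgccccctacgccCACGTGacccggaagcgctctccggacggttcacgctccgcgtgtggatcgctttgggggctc
Prmt2 (chr10:76237816-76238115, minus strand): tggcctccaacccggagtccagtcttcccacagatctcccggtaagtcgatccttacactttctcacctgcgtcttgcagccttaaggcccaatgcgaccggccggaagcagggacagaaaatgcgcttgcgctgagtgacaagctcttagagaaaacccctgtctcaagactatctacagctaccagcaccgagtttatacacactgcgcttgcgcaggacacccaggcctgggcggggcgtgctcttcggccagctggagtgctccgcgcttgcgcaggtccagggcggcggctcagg
The E-box occurred once in Prmt1 and once in Prmt3, and these letters were not in the windows of Prmt2, Prmt6 and Prmt7. Of 32851 RefSeq promoters of this length 7.15% held it. The CCAAT box (CCAAT, either strand) was in Prmt1, Prmt2 and Prmt3 and in 37.4% of all promoters, and the GC box (GGGCGG, either strand) was in Prmt1, Prmt2, Prmt3 and Prmt7 and in 35.7% of all promoters. These matches describe the letters alone.

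Prmt1 was the most abundant member in every class. Each captured molecule gives 1 UMI near its 3′ end, so levels are in UMI counts of transcripts and need no division by length. In B cells of the 13 spleens Prmt1 lay between 84.9 and 268 CPM with a median of 114 CPM, from 357 to 10974 UMIs per library. Prmt3 followed with a median of 33.5 CPM and Prmt7 with 28.8 CPM, an order seen in 6 of 13 libraries only, so these 2 neighbours did not separate. Prmt2 had a median of 14.3 CPM, below Prmt7 in 12 of 13 libraries. Prmt6 (7.67 CPM) and Carm1 (7.60 CPM) were lowest and kept that order in 6 of 13 libraries. Carm1 rested on 22 to 291 UMIs per library.

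In T cells of 12 spleens the order was Prmt1, Prmt3, Prmt7, Prmt2, Prmt6 and Carm1, with median levels of 103, 23.9, 18.9, 18.5, 11.3 and 6.53 CPM. Prmt7 and Prmt2 kept their order in 6 of 12 libraries. In myeloid cells of 11 spleens the medians were 72.5 CPM for Prmt1, 14.97 CPM for Prmt3, 10.2 CPM for Prmt7, 4.47 CPM for Carm1, 4.24 CPM for Prmt6 and 2.12 CPM for Prmt2. Prmt2, whose median was above those of Prmt6 and Carm1 in lymphocytes, was last in myeloid cells, where it rested on 1 to 35 UMIs per library. Barcodes with at most 100 UMIs, which sample free RNA, held Prmt2 at 4.60 to 27.7 CPM (median 11.8 CPM), a range that overlapped the myeloid one of 1.09 to 6.09 CPM. The medians in these barcodes were 102.8 CPM for Prmt1, 25.1 CPM for Prmt3, 20.8 CPM for Prmt7, 9.01 CPM for Carm1 and 7.84 CPM for Prmt6. All 6 lay above the myeloid medians, and that of Carm1 also above its medians in B and T cells. Those of Prmt1 (102.77 against 102.63 CPM), Prmt3 and Prmt7 lay above their T-cell medians, and that of Prmt6 above its B-cell median. The part of free RNA in the values was not tested. In such sums, fewer cells with the transcript and less of it per cell cannot be told apart.

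**Figure D1:**
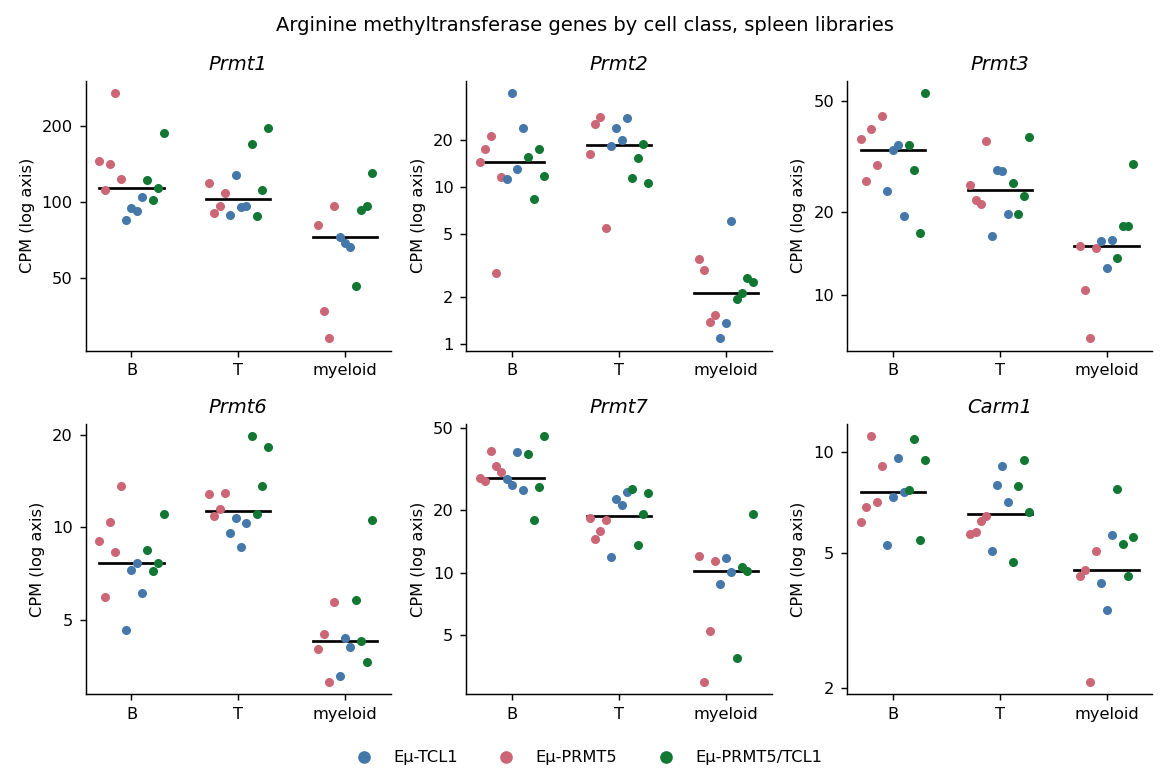
Level of each member (CPM, log axes that differ between panels) in B, T and myeloid cells of the spleens; a point is a library, colored by genotype, and a bar is the median. Prmt2 sits between 1.09 and 6.09 CPM in myeloid cells against 2.84 to 39.3 CPM in B cells (median 14.3 CPM). Among the 6 panels it has the largest ratio of the B to the myeloid median.

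Classes of the same spleens were then compared, to find which members go with which lineage. All 6 members were higher in B than in myeloid cells. Prmt2 differed most, by 2.42 ± 0.23 (log2, SE), a 5.37-fold difference seen in 11 of 11 libraries (edgeR adjusted p 9.71e-10). Prmt7 was 2.76-fold higher (log2 1.47 ± 0.16, 11 of 11 libraries, edgeR adjusted p 8.77e-09) and Prmt3 1.77-fold higher (log2 0.82 ± 0.14, 10 of 11). Prmt1, Carm1 and Prmt6 were higher by log2 0.66, 0.65 and 0.64. Of 11443 genes tested, 38.4% were called higher in B than in myeloid cells and 32.2% lower (edgeR adjusted p under 0.05). The median log2 difference was 0.74 over the members against 0.09 over all genes. Of 33 other genes of arginine methylation (other methyltransferases, their partners, methyl donor supply, methylarginine readers and substrates) 31 were tested, and 15 were called higher and 5 lower.

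Restricting the cells to those not cycling changed the sizes. Among cells with at most 1 cycle gene, the B-to-myeloid difference was log2 1.77 ± 0.16 for Prmt1, 1.89 ± 0.21 for Prmt3 and 2.15 ± 0.22 for Prmt7, while that for Prmt2 was 2.52 ± 0.30 and that for Carm1 0.89 ± 0.30. Prmt6 was at 0.38 ± 0.17 and no longer passed (edgeR adjusted p 0.0532). All 6 members were also called lower in myeloid than in T cells (edgeR adjusted p under 0.05), as were 37.3% of all genes. Of the 31 other genes 7 were called higher and 14 lower, against 33.6% and 37.3% of all genes. The differences were log2 -2.52 for Prmt2, -1.17 for Prmt6, -0.68 for Prmt7, -0.49 for Prmt1, -0.38 for Prmt3 and -0.38 for Carm1. Among cells with at most 1 cycle gene they were -2.53, -1.03, -1.40, -1.75, -1.53 and -0.64 in the same order of members. The call for Carm1 was marginal (edgeR adjusted p 0.05) and was lost when any of 9 spleens was left out (Eµ-PRMT5 1, 2, 3 and 5, Eµ-TCL1 2, 3 and 4, Eµ-PRMT5/TCL1 2 and 3), with adjusted p up to 0.144. It was also lost with RLE size factors, with no filter on low counts, with a threshold of 500 UMIs per cell and among cells with at most 1 cycle gene (adjusted p 0.0509 to 0.0927). Prmt3 lost its call without Eµ-TCL1 spleen 3 (log2 -0.32, edgeR adjusted p 0.0587).

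Between B and T cells 3 of 6 members passed, where 59.4% of all genes did. Of the 31 other genes 11 were called higher in B cells and 7 lower, against 30.6% and 28.8% of all genes. Prmt7 was 1.72-fold higher in B cells (log2 0.79 ± 0.14, 12 of 12 libraries, edgeR adjusted p 3.71e-05), with medians of 28.8 CPM in B and 18.9 CPM in T cells. Prmt3 was 1.36-fold higher (log2 0.45 ± 0.13, 10 of 12, edgeR adjusted p 0.00413), and among cells with at most 1 cycle gene this was 0.36 ± 0.16 (adjusted p 0.0508). Prmt6 went the other way, 1.44-fold higher in T cells (log2 -0.53 ± 0.10 for B minus T, lower in 11 of 12 libraries, edgeR adjusted p 0.000125). Prmt1 (log2 0.17, 95% interval -0.12 to 0.46), Prmt2 (-0.10, -0.46 to 0.27) and Carm1 (0.28, -0.02 to 0.58) did not pass.

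The main comparison of the design asks whether the 3 genotypes differ in B cells. In Eµ-TCL1 spleens Prmt1 was at 84.9, 94.6, 92.0 and 104 CPM. In Eµ-PRMT5 spleens it was at 145, 111, 141, 268 and 124 CPM, and in Eµ-PRMT5/TCL1 spleens at 122, 101, 114 and 186 CPM. Every Eµ-PRMT5 spleen was above every Eµ-TCL1 spleen, a separation in that direction that 2.61% of all genes showed, while Eµ-PRMT5/TCL1 overlapped both. In either direction 4.76% of all genes separated Eµ-PRMT5 from Eµ-TCL1 spleens. The log2 difference of Eµ-PRMT5 from Eµ-TCL1 was 0.79 ± 0.31, 1.73-fold, and did not pass over all genes (edgeR p 0.0235, adjusted p 0.212). Without Eµ-PRMT5 spleen 4 it was 0.35 ± 0.16 (adjusted p 0.192), and among B cells with at most 1 cycle gene 0.37 ± 0.18 (adjusted p 0.342).

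No member passed in any contrast of B cells between spleen groups by edgeR, against 0.0169% of 11856 genes for Eµ-PRMT5 minus Eµ-TCL1, 0.00843% for Eµ-PRMT5/TCL1 minus Eµ-TCL1 and 0% for Eµ-PRMT5/TCL1 minus Eµ-PRMT5. At an unadjusted p under 0.05 there was 1 of 18 member tests by edgeR and 2 by DESeq2, which called 0 after adjustment. Over all genes 17.7%, 5.04% and 9.17% were under that p by edgeR in the 3 contrasts. None of the other genes of arginine methylation passed in these or any later group contrast. The 3 contrasts share libraries. Prmt2 leaned the other way from Prmt1, at 11.3, 39.3, 13.01 and 23.6 CPM in Eµ-TCL1 spleens, 14.3, 17.4, 21.1, 2.84 and 11.6 CPM in Eµ-PRMT5 spleens and 15.4, 8.36, 17.3 and 11.7 CPM in Eµ-PRMT5/TCL1 spleens. The groups overlapped. Against Eµ-TCL1 the log2 difference was -0.78 ± 0.45 in the single PRMT5 transgenics and -0.77 ± 0.48 in the double transgenics. Without Eµ-PRMT5 spleen 4 the first was -0.55 ± 0.37 (edgeR adjusted p 0.36). The lowest value, 2.84 CPM, was again Eµ-PRMT5 spleen 4, which also held the highest Prmt1.

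The other 4 members were compared in the same B cells. Prmt3 was 27.9 ± 7.51 CPM (SD, n = 4) in Eµ-TCL1, 35.1 ± 7.45 CPM (n = 5) in Eµ-PRMT5 and 33.3 ± 15.4 CPM (n = 4) in Eµ-PRMT5/TCL1 spleens. Prmt7 was 29.6 ± 6.03, 31.7 ± 4.30 and 31.7 ± 12.2 CPM in the same order, and Carm1 7.46 ± 1.76, 8.06 ± 2.00 and 8.38 ± 2.32 CPM. For Prmt7 and Carm1, Eµ-PRMT5 minus Eµ-TCL1 was log2 0.08 (95% interval -0.43 to 0.59) and 0.09 (-0.47 to 0.65), which for Carm1 still allows a 1.57-fold higher level. Prmt6 was 6.42 ± 1.36, 9.49 ± 2.88 and 8.59 ± 1.74 CPM, with log2 0.55 ± 0.26 for Eµ-PRMT5 minus Eµ-TCL1 (edgeR p 0.0507, adjusted p 0.284). Plasma cell markers (Sdc1, Jchain, Prdm1 and Tnfrsf17) summed to 19.4 to 7293 CPM in these B cells and varied as widely within groups, and their part in the values was not tested.

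**Figure D2:**
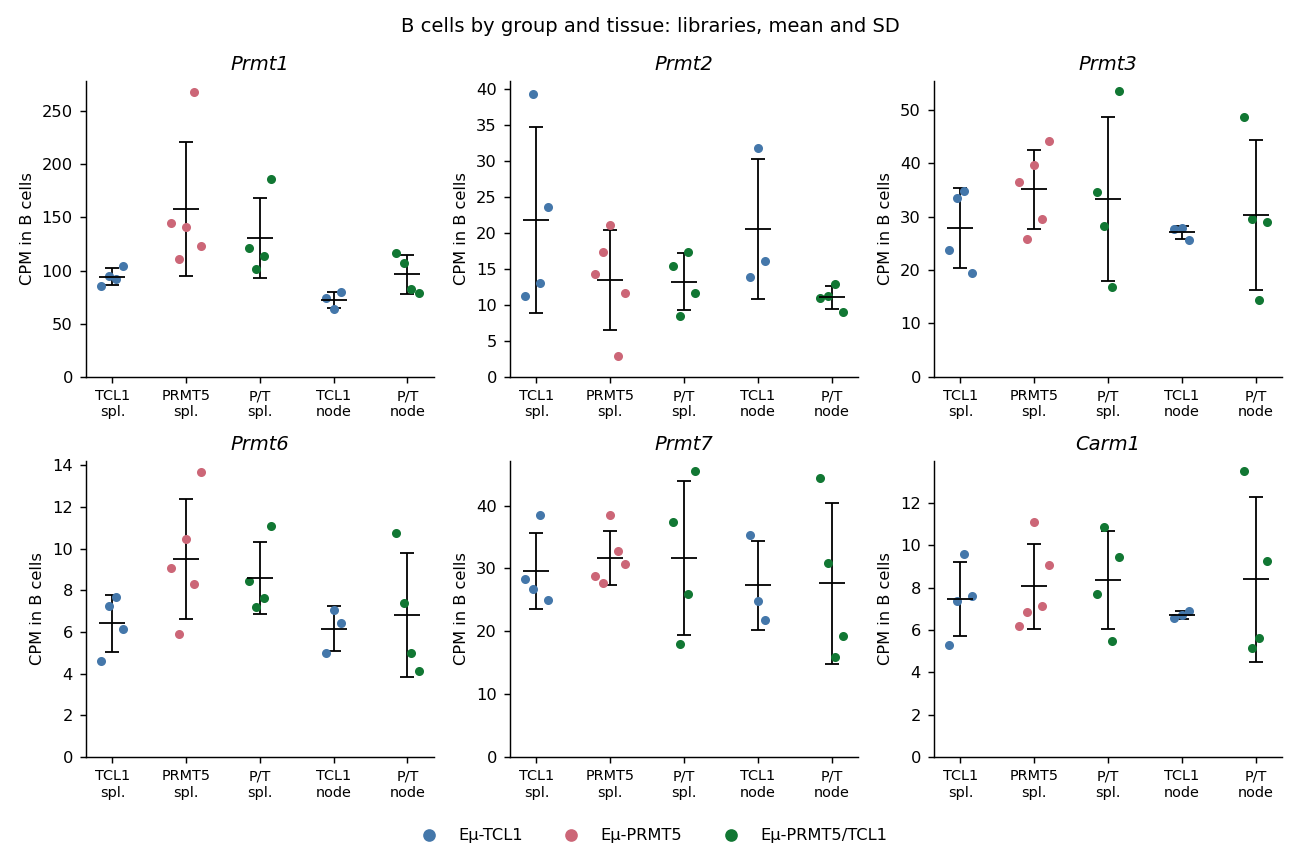
Level of each member in B cells (CPM) by group, where P/T stands for Eµ-PRMT5/TCL1, spl. for spleen and node for lymph node; points are libraries, and bars give the mean and SD. In the Prmt1 panel the 5 Eµ-PRMT5 spleens lie between 111 and 268 CPM, above the 4 Eµ-TCL1 spleens (84.9 to 104 CPM).

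In lymph nodes Prmt2 was the member that separated the groups. It was at 13.9, 31.8 and 16.2 CPM in Eµ-TCL1 nodes and at 11.004, 11.3, 12.8 and 8.97 CPM in Eµ-PRMT5/TCL1 nodes. All 4 double transgenic nodes were below all 3 Eµ-TCL1 nodes, a separation in that direction that 3.81% of all genes showed, and 7.86% in either direction. The log2 difference of -0.95 ± 0.34 did not pass (edgeR p 0.0217, adjusted p 0.494) and was -0.45 ± 0.28 without Eµ-TCL1 lymph node 2, the highest library. Plasma cell markers in these B cells separated the same groups, at 221 to 1644 CPM in the double transgenic nodes against 2050 to 5191 CPM in Eµ-TCL1 nodes, and their part in the difference was not tested. Of 11428 genes 0% passed, and of the members 0 by edgeR and 0 by DESeq2, with 1 and 2 of 6 at an unadjusted p under 0.05, where 8.62% of all genes were by edgeR. Prmt1 ran from 64.0 to 79.4 CPM in Eµ-TCL1 and from 78.7 to 116 CPM in Eµ-PRMT5/TCL1 nodes (log2 0.39, 95% interval -0.03 to 0.80).

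T cells were compared the same way, and Prmt6 was the member that separated. It was at 9.61, 10.7, 8.61 and 10.4 CPM in Eµ-TCL1 spleens, at 12.9, 10.9, 11.5 and 12.9 CPM in 4 Eµ-PRMT5 spleens, and at 19.8, 11.1, 13.6 and 18.3 CPM in Eµ-PRMT5/TCL1 spleens. All Eµ-TCL1 spleens were lowest, a separation in that direction that 4.41% of all genes showed against Eµ-PRMT5 and 1.82% against Eµ-PRMT5/TCL1. In either direction these shares were 7.09% and 3.06%. The log2 differences were 0.31 ± 0.19 and 0.53 ± 0.20 (for the second, edgeR p 0.0208, adjusted p 0.552). No member passed in T cells by edgeR or DESeq2, with 1 of 18 tests at an unadjusted p under 0.05 by each. Over all genes 10.4%, 8.86% and 12.6% were under it by edgeR for Eµ-PRMT5 minus Eµ-TCL1, Eµ-PRMT5/TCL1 minus Eµ-TCL1 and Eµ-PRMT5/TCL1 minus Eµ-PRMT5. Of 10740 genes 0.0186% passed for Eµ-PRMT5 minus Eµ-TCL1, 0% for Eµ-PRMT5/TCL1 minus Eµ-TCL1 and 0% for Eµ-PRMT5/TCL1 minus Eµ-PRMT5.

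Myeloid cells gave no member past the threshold either, by edgeR or DESeq2, and 0% of 10027 genes passed in each of the 3 contrasts. At an unadjusted p under 0.05 there was 1 test of 18 by edgeR and 0 by DESeq2, against 3.22%, 2.19% and 4.42% of all genes by edgeR in the same 3 contrasts. The member was Prmt3, at 14.97, 10.4, 6.97 and 14.8 CPM in Eµ-PRMT5 and at 13.6, 17.7, 17.8 and 29.8 CPM in Eµ-PRMT5/TCL1 spleens. These ranges overlapped (log2 0.57 ± 0.25, edgeR p 0.0378, adjusted p 0.929), and among cells with at most 1 cycle gene the difference was -0.25 ± 0.58. Whether a genotype difference itself differed between B and T cells was tested as an interaction, and no member passed by edgeR or DESeq2, with 0 of 18 tests at an unadjusted p under 0.05, where 10.1%, 6.65% and 8.86% of all genes were. For Prmt1 the extra difference of Eµ-PRMT5 from Eµ-TCL1 in B cells was log2 0.31 (95% interval -0.11 to 0.73). Of 12120 genes 0.0248% passed for that contrast, 0.00825% for Eµ-PRMT5/TCL1 minus Eµ-TCL1 and 0.00825% for Eµ-PRMT5/TCL1 minus Eµ-PRMT5.

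Lymph node and spleen of the same 7 mice were compared within mice. Prmt1 in B cells was lower in the lymph node in 7 of 7 mice, at 64.0 to 116 CPM against 84.9 to 186 CPM in their spleens. The difference was log2 -0.35 ± 0.10 (edgeR p 0.00497, adjusted p 0.225). DESeq2 put it at -0.34 with an adjusted p of 0.0152, by which 2.71% of all genes passed, so the call depended on the tool. Here 0.044% of 11370 genes passed by edgeR, and 1 of 6 members had an unadjusted p under 0.05 by each tool, where 11.4% of all genes had by edgeR. In T cells Prmt6 was lower in the lymph node in 7 of 7 mice (log2 -0.49 ± 0.20, edgeR p 0.0302, adjusted p 0.366), where 0.00986% of 10142 genes passed and no member did by edgeR or DESeq2, with 1 of 6 at an unadjusted p under 0.05 by each, against 12% of all genes by edgeR. The value of Eµ-PRMT5/TCL1 lymph node 1, with 69 T cells, rested on 2 UMIs of Prmt6. The remaining B-cell differences between tissues lay between log2 -0.16 and 0.03.

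Cells of the same libraries were then compared by cycling state. A cell was placed in G2/M when 3 or more of 14 G2/M genes (Mki67, Top2a and others) had a UMI. It was placed in S when 3 or more of 14 S genes but fewer than 3 G2/M genes had a UMI. Cells with 3 or more genes of both lists thus counted as G2/M. A cell was of neither state when at most 1 of all these genes had a UMI, and the remaining cells were left out. In B cells of 9 spleens with enough G2/M cells, Prmt1 lay between 102 and 296 CPM in G2/M (median 138 CPM), against 70.4 to 142 CPM (median 104 CPM) in cells of neither state of 13 spleens. G2/M was higher in 9 of 9 libraries, by log2 0.54 ± 0.10 or 1.46-fold (edgeR adjusted p 6.31e-05), and by 0.37 ± 0.07 without Eµ-PRMT5 spleen 4. In S cells it was higher in 13 of 13 spleens, by log2 0.34 ± 0.09 (edgeR adjusted p 0.00961). That S call was lost with a stricter marker rule for classes (0.33, adjusted p 0.095).

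The library with the highest Prmt1 in all B cells had the lowest in cells of neither state. In Eµ-PRMT5 spleen 4 Prmt1 was at 296 CPM in G2/M, 165 CPM in S and 70.4 CPM in B cells of neither state, where the other 12 spleens ran from 74.6 to 142 CPM. Its G2/M cells were 1680 of 2224 B cells before thinning. Mouse Prmt5, for comparison, was higher in G2/M B cells by log2 0.56 ± 0.10 (edgeR adjusted p 2.04e-05).

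Prmt2 fell in G2/M. In the 9 spleens with both states, B cells of neither state held it at 9.32 to 41.0 CPM (median 12.7 CPM). G2/M B cells held it at 2.40 to 17.7 CPM (median 8.16 CPM), from 5 to 84 UMIs per library. It was lower in 8 of 9 libraries, with Eµ-TCL1 spleen 3 as the exception, by log2 -1.09 ± 0.13 or 2.13-fold (edgeR adjusted p 4.43e-08). In S cells the difference was -0.19 ± 0.10 and did not pass. Carm1 was higher in G2/M by log2 0.42 ± 0.15 in 6 of 9 libraries (edgeR adjusted p 0.0241), a call lost without Eµ-PRMT5 spleen 4 (0.27), Eµ-PRMT5/TCL1 spleen 3 (0.36) or Eµ-PRMT5/TCL1 spleen 4 (0.38). It was also lost with no filter on low counts (0.37), with the stricter class rule (0.27) and with state read on thinned cells (0.29). Prmt3, Prmt6 and Prmt7 had G2/M differences of log2 0.06, -0.14 and 0.15 with 95% intervals inside -0.46 to 0.33.

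Against the background, 3 of 6 members passed for G2/M in spleen B cells where 52.3% of 10199 genes did, and 1 of 6 for S where 15.9% did. Of the 31 other genes of arginine methylation, 14 rose and 7 fell in G2/M B cells, and 9 rose and 2 fell in S. Over all genes 24.5% rose and 27.7% fell in G2/M by the same call, and 9.02% and 6.86% in S. G2/M B cells held more UMIs per cell (library medians of 10716 to 21262) than cells of neither state (3919 to 8690). CPM is a share of UMIs, so a lower CPM in G2/M, as for Prmt2, need not mean fewer molecules per cell. Among B markers 5 of 6 were lower in G2/M B cells, Cd79a by log2 -0.74. Both erythroid markers tested were higher (Hba-a1, a hemoglobin gene, by 3.02), while 2 of 4 plasma cell markers (Jchain by -1.26), both myeloid markers (Ngp by -1.46) and 1 of 2 T markers (Cd3g by -0.51) were lower, as was the endothelial marker Pecam1 (-0.60). In S, 4 of 6 B markers (Cd79a by -0.32), 1 of 2 myeloid markers (Ngp by -0.77) and 1 of 4 plasma cell markers (Sdc1 by -0.66) were lower. With state read after thinning to 2000 UMIs, Prmt1 still differed by log2 0.39 ± 0.11, while the part of cell identity in these differences was not tested.

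In lymph node B cells the pattern for both genes recurred. The nodes came from mice whose spleens are in the spleen comparison, so the sets are not independent. Prmt1 in the 6 nodes with enough G2/M cells was at 138, 151 and 110 CPM in Eµ-PRMT5/TCL1 nodes 1, 2 and 4 and at 92.3, 100.1 and 98.6 CPM in Eµ-TCL1 nodes 1 to 3. The corresponding cells of neither state were at 111, 97.7, 52.3, 60.1, 63.6 and 73.6 CPM. G2/M was higher in 6 of 6 nodes, by log2 0.57 ± 0.12 (edgeR adjusted p 0.000404). Prmt2 was lower in 6 of 6, by -1.36 ± 0.15 (edgeR adjusted p 2.08e-07), with 4.68 to 11.5 CPM in G2/M against 10.2 to 34.9 CPM in the same nodes' cells of neither state. Prmt7 (log2 0.30 ± 0.12, edgeR adjusted p 0.0512) passed only without Eµ-PRMT5/TCL1 lymph node 1 (0.36, adjusted p 0.0333). Thus 2 of 6 members passed for G2/M, where 41.8% of 9648 genes did. For S, where 5.66% did, 0 passed by edgeR or DESeq2, and 1, Prmt1, had an unadjusted p under 0.05 by each, as 20.4% of all genes had by edgeR (log2 0.34 ± 0.11, adjusted p 0.083); without Eµ-TCL1 lymph node 2 it passed (0.42, adjusted p 0.0452). Of the 31 other genes, 11 rose and 5 fell in G2/M, and 5 rose and 2 fell in S. Over all genes 20.1% rose and 21.7% fell in G2/M, and 3.44% and 2.22% in S.

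In T cells Prmt1 was higher in G2/M, and Prmt2 and Prmt6 were lower. In G2/M T cells of 6 spleens Prmt1 lay between 107 and 255 CPM, higher than in cells of neither state in 6 of 6, by log2 0.30 ± 0.10 (edgeR adjusted p 0.0126). That call was lost without Eµ-PRMT5/TCL1 spleen 4 (0.25, adjusted p 0.0633) and with the stricter class rule (0.28, adjusted p 0.0804). Prmt2 was lower in 6 of 6 libraries, at log2 -0.98 ± 0.21 (edgeR adjusted p 0.000564). Its medians in these 6 spleens were 14.955 CPM in neither state and 8.29 CPM in G2/M, the latter from 1 to 15 UMIs per library. Prmt6 lay between 2.31 and 10.2 CPM in G2/M and between 10.3 and 24.3 CPM in cells of neither state of the same 6 spleens. It was lower in 6 of 6 libraries, by log2 -1.23 ± 0.23 or 2.34-fold (edgeR adjusted p 8.01e-05), from 4 to 14 UMIs per library in G2/M. In lymph node B cells Prmt6 was at -0.36 ± 0.18 (edgeR adjusted p 0.116), and the difference between classes was not tested. Prmt3 had -0.33 ± 0.15 (adjusted p 0.0741), and passed without Eµ-TCL1 spleen 1 (-0.43) or without Eµ-PRMT5/TCL1 spleen 2 (-0.43).

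In all, 3 of 6 members passed for G2/M in T cells, where 47.3% of 9283 genes did. Of 28 other genes of arginine methylation tested 7 rose and 11 fell, against 23.9% and 23.4% of all genes. Prmt5 in G2/M T cells was at log2 -0.38 ± 0.18 (adjusted p 0.0798), a sign opposite to that in B cells, and the difference between the classes was not tested. For S in T cells 0 of 6 members passed, where 0.959% of genes did, with 0 at an unadjusted p under 0.05 (12.2% of all genes) and 0 by DESeq2. G2/M T cells held more UMIs per cell (library medians of 8207 to 11913) than cells of neither state (2606 to 5968). The lower CPM of Prmt2 and Prmt6, a share of UMIs, thus need not mean fewer molecules per G2/M T cell. Of the 6 T markers 3 were higher and 1 lower in G2/M T cells. Of the 3 NK cell markers tested 1 passed, Gzma, a granzyme of cytotoxic cells (log2 2.03), with Klrb1c at -1.39 and Klre1 at -0.27. Both plasma cell markers tested passed in opposite directions, Prdm1 at 0.89 and Jchain at -2.22, and of the 2 myeloid markers tested Ngp was lower (-1.96). The part of cell identity in the T-cell differences was not tested. The 6 S differences in T cells lay between log2 -0.13 and 0.19.

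**Figure D3:**
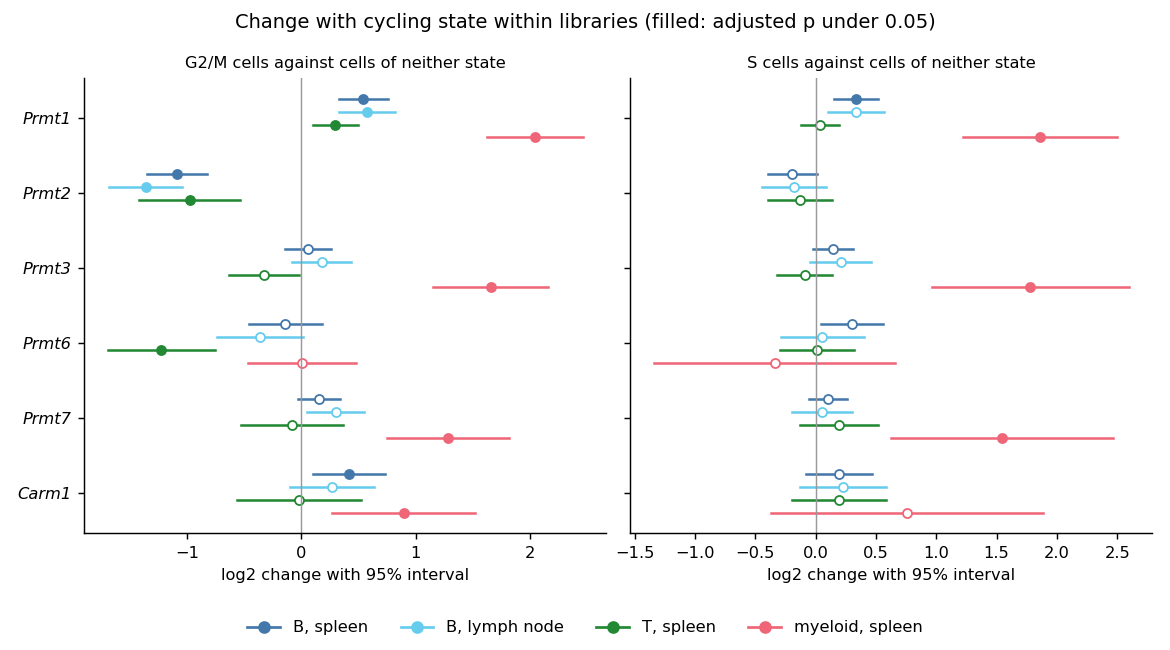
Difference in level (log2) between G2/M cells (left) or S cells (right) and cells of neither state of the same libraries, with 95% intervals, for each member in 4 sets of cells; filled points have an adjusted p under 0.05. Prmt1 lies to the right of 0 in all 4 sets for G2/M (0.30 to 2.04), Prmt2 to the left in the 3 lymphocyte sets (-0.98 to -1.36), and the myeloid points for Prmt1, Prmt3 and Prmt7 lie farthest right; Prmt2 in myeloid cells was too low to test.

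In myeloid cells Prmt1, Prmt3, Prmt7 and Carm1 rose in G2/M. In the 9 spleens with both states, Prmt1 lay between 8.41 and 69.5 CPM (median 15.65 CPM) in cells of neither state. In G2/M it lay between 50.3 and 179 CPM (median 124 CPM), 4.12-fold higher (log2 2.04 ± 0.20, 9 of 9 libraries, edgeR adjusted p 3.2e-07). Prmt3 rose 3.15-fold (log2 1.66 ± 0.24, 9 of 9, edgeR adjusted p 1.86e-05), from a median of 4.51 CPM to 21.1 CPM in these spleens. Prmt7 rose 2.43-fold (log2 1.28 ± 0.25, 8 of 9, edgeR adjusted p 0.000356) and Carm1 1.86-fold (log2 0.89 ± 0.29, 8 of 9, edgeR adjusted p 0.014). Prmt6 did not pass (log2 0.01, 95% interval -0.47 to 0.48), although its CPM was higher in G2/M in 8 of 9 libraries (median log2 ratio 0.40). Prmt2 failed the filter on low counts with 1 to 18 UMIs per library in G2/M. So 4 of the 5 members tested passed, where 68.1% of 9174 genes did. Of the 31 other genes 15 rose and 6 fell, against 35.3% and 32.8% of all genes.

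S cells were numerous enough in 3 spleens. Prmt1 was at 82.1, 117 and 102 CPM in S cells of Eµ-PRMT5 spleen 4, Eµ-PRMT5/TCL1 spleen 2 and Eµ-TCL1 spleen 1, against 39.5, 15.4 and 8.7 CPM in cells of neither state. The S differences were log2 1.86 ± 0.30 for Prmt1, 1.78 ± 0.38 for Prmt3 and 1.55 ± 0.43 for Prmt7, so 3 of 5 members passed where 38.4% of genes did. Of the other 31 genes 11 rose and 5 fell, against 19.3% and 19.1% of all genes. Without Eµ-PRMT5/TCL1 spleen 2 the number passing was 1, as Prmt3 (1.398, adjusted p 0.0873) and Prmt7 (1.52, adjusted p 0.0524) lost their calls; Prmt7 also did without Eµ-TCL1 spleen 1 (1.30, adjusted p 0.0677) and with the stricter class rule (1.45, adjusted p 0.0886).

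The myeloid class held cells of different maturity, and this moved with state. In G2/M the precursor markers Mpo and Elane, granule enzymes of immature granulocytes, were higher by log2 8.11 and 6.86, and 5 of the 8 myeloid markers were lower, among them Csf3r by -2.26 and Cd14 by -2.04. All 3 plasma cell markers tested were lower (-3.94 to -2.47), Cd79a was lower (-2.25), and Cd79b (1.18) and Hbb-bt (1.397) were higher. In S, 2 of the 8 myeloid markers were higher and 4 lower, 2 of 3 plasma cell markers were lower, and Cd79b was higher (2.05). The part of other cells in these differences was not tested. Cycling and immaturity cannot be told apart in this class. The median myeloid cell held 10169 to 25421 UMIs in G2/M and 4903 to 9375 in neither state. With state read on thinned cells the Prmt1 difference was log2 1.56 ± 0.14. Prmt5 in myeloid cells rose by log2 1.83 ± 0.24 in G2/M (edgeR adjusted p 7.32e-06).

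**Figure D4:**
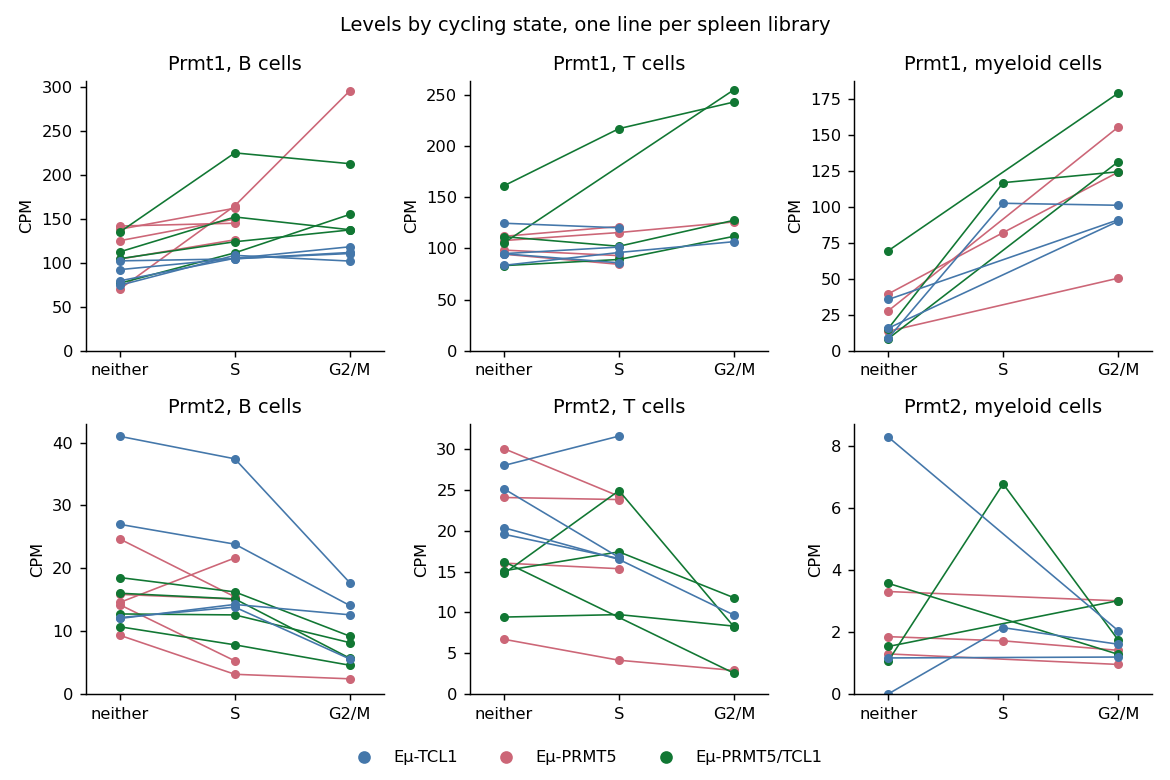
Level of Prmt1 (top) and Prmt2 (bottom) in cells of neither state, in S and in G2/M (CPM, axes from 0 that differ between panels), with 1 line per spleen library in B, T and myeloid cells, colored by genotype; a state with under 30 cells has no point. Prmt1 is higher in G2/M than in neither state in all 9 B-cell, 6 T-cell and 9 myeloid libraries with both ends, from a myeloid median of 15.65 CPM to 124 CPM. Prmt2 is lower in 8 of 9 B-cell and 6 of 6 T-cell libraries.

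Across the 13 spleens, the level in all B cells was set against the thinned share of B cells with G2/M genes. That level includes the G2/M cells that set the share, so level and share are not independent. Prmt1 had Pearson r 0.83 (permutation p 0.0151, adjusted over the 6 members 0.0904) but Spearman rho 0.088 (permutation p 0.777). Without the 2 libraries farthest from the median share, Eµ-PRMT5 spleen 4 and Eµ-PRMT5/TCL1 spleen 4, r was -0.56, so the relation rests on them. Leaving out Eµ-PRMT5 spleen 4 alone gave 0.28. With the level in B cells of neither state in place of all B cells, r was -0.42 (permutation p 0.148, adjusted 0.263). Groups hold 4 or 5 spleens, too few for a value within each; with the levels and shares centered on their group means, r was 0.90 (permutation p 0.00114, adjusted 0.00684) and rho 0.69 (permutation p 0.0108, adjusted 0.0473). Centered without Eµ-PRMT5 spleen 4, a setting added after seeing the data, r was 0.51 (permutation p 0.101, adjusted 0.318) and rho 0.34.

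Prmt2 had r -0.56 (permutation p 0.0793, adjusted 0.238) and rho -0.66 (permutation p 0.0158, adjusted 0.0949), and without the 2 farthest libraries r was -0.40. Centered on group means rho was -0.66 (permutation p 0.0158, adjusted 0.0473) and r -0.56 (adjusted 0.167), and without Eµ-PRMT5 spleen 4 as well rho was -0.52 and r -0.51 (adjusted 0.505 and 0.318). Without Eµ-TCL1 spleen 2 r was -0.71 (adjusted permutation p 0.0386), and without Eµ-TCL1 spleen 4 rho was -0.79 (adjusted permutation p 0.0197). For Prmt3, Prmt6, Prmt7 and Carm1 r was -0.00053, -0.024, 0.17 and -0.16, with adjusted permutation p of 0.978 or more, and rho between -0.24 and -0.044.

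**Figure D5:**
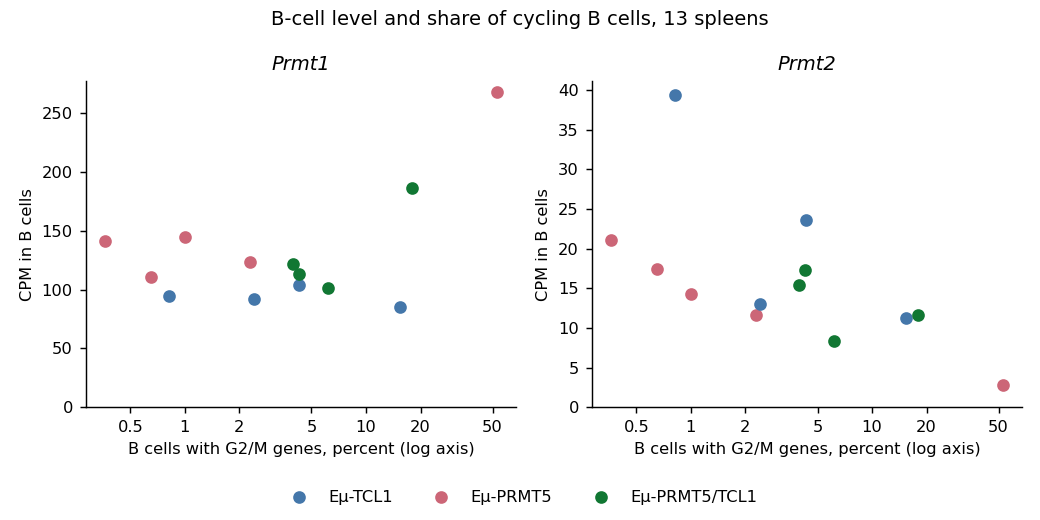
Level of Prmt1 (left) and Prmt2 (right) in all B cells (CPM, from 0) against the percent of B cells with G2/M genes after thinning to 2000 UMIs (log axis); each of the 13 points is a spleen, colored by genotype. The Prmt1 point at 52.8% and 268 CPM is Eµ-PRMT5 spleen 4, which also has the lowest Prmt2 (2.84 CPM).

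The genes whose log2 levels over the B cells of 13 spleens ran most like each member were listed as a description. For Prmt1 they were Pgam1 (r 0.96), a glycolytic enzyme, Idh3a (0.96), a subunit of mitochondrial isocitrate dehydrogenase, and Wrap53 (0.95), a Cajal body protein that binds telomerase RNA. For Prmt2 they were Parp16 (0.94), Nectin1 (0.93) and Zfp90 (0.91), for Prmt6 Heatr3 (0.94), 4930453N24Rik (0.91) and Mylpf (0.87), and for Prmt7 Miip (0.91), 2010111I01Rik (0.87) and Mapre2 (0.87). Prmt3 had Kti12 (0.84), Gm45552 (0.83) and Nfkbiz (0.83), and Carm1 Vars2 (0.80), Gm14321 (0.79) and Fzd6 (0.78). Among the members themselves Prmt1 and Prmt2 had r -0.76, Prmt3 and Prmt6 0.68, and Prmt1 and mouse Prmt5 0.81. Without Eµ-PRMT5 spleen 4, left out after seeing the data, the same pairs had r -0.38, 0.66 and 0.50 over 12 spleens. The libraries share depth and cycling differences, and no test is attached to these values.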

How the data were processed

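Single-cell RNA-seq libraries (10x 3′ v2) of 13 spleens and 7 lymph nodes were analyzed. The authors deposited raw UMI counts per gene and barcode, unfiltered, made with Cell Ranger on GRCm38 (2.0.1 per the methods and the submitters' processing notes, 3.1.0 per the file headers). A barcode was kept as a cell if it exceeded the 99th percentile of the 3000 largest barcodes divided by 10 (1745 to 4399 UMIs), held 200 genes or more and had no more than 10% of its UMIs on mitochondrial genes. A class needed 2 of its markers and at most 1 of another; cells passing for more than 1 class were left out as possible doublets, and no doublet caller was run. G2/M needed 3 of 14 genes, S needed 3 of 14 and fewer than 3 G2/M genes, and neither at most 1 gene of both lists. Counts were summed per library and class (at least 50 cells) or state (at least 30 cells) and tested with the edgeR quasi-likelihood test (edgeR 4.0.16, limma 3.58.1, R 4.3.3; TMM, filterByExpr), with Benjamini-Hochberg adjustment over all genes tested and a threshold of 0.05. Class, state and tissue fits had the library or mouse as a block. DESeq2 1.42.0, RLE size factors, no filter, no immunoglobulin genes, a 500-UMI threshold, a stricter class call (3 markers, 0 of another), cells of neither state, Xist as a covariate, a replicate block and leaving out each library were alternatives. Correlations used 100000 permutations (two-sided; scipy 1.17.1). For the share of G2/M cells, cells were thinned to 2000 UMIs and 2 genes were asked; at most 27 B cells of a spleen were shallower and were left out. The 3 genes most like each member by Pearson's r (log2 CPM, prior count 2) and members past an adjusted p, or not overlapping between groups, were named. Scripts were tested on simulated data. The members and gene lists were chosen with earlier results of these data known.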

Additional observations from a re-analysis of the deposited data

Results flagged for a closer look

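Of 60 sets of 4 to 10 libraries examined, 1 had a library far from the rest, where chance gives about 1 in 20. It was Prmt1 in B cells of Eµ-PRMT5 spleen 4, at 268.408 CPM from 10974 UMIs, while the other 4 Eµ-PRMT5 spleens lay between 110.961 and 144.767 CPM. In the same library 52.8% of B cells carried G2/M genes after thinning, against 0.363% to 2.29% in those 4 spleens, and its B cells of neither state held Prmt1 at 70.4 CPM. Its B markers summed to 1067 CPM.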

How the results depend on the processing

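Only the 41 member results with an unadjusted edgeR p under 0.05 in the main fits were followed. Of their 749 recomputed values 712 kept their direction and side of the threshold, 29 lost the threshold, 7 passed it and 1 reversed. The reversed value was Prmt3 in myeloid cells, Eµ-PRMT5/TCL1 minus Eµ-PRMT5, at -0.25 among cells of neither state. For results that had not passed, keeping the side meant staying uncalled. Many settings left out 1 library and so shared most of the data. Over all settings the number of members called ran from 2 to 3 for B minus T, 5 to 6 for B minus myeloid and 4 to 6 for myeloid minus T cells. In the main fits 59.4%, 70.5% and 70.9% of all genes were called in these contrasts. For G2/M the number of members ran from 2 to 3 in B cells of spleens and of nodes, 2 to 4 in T cells and 3 to 4 in myeloid cells. The main shares of all genes were 52.3% (spleen B cells), 41.8% (node B cells), 47.3% (T cells) and 68.1% (myeloid cells). For lymph node minus spleen in B cells DESeq2 called 1 member and 2.71% of all genes. For S cells in lymph node B cells the number of members was 1 with no filter on low counts and 1 with state read on thinned cells. It lay between 0 and 1 when each library was left out, with 1 without Eµ-TCL1 lymph node 2. In the main fit 5.66% of all genes were called. For S cells in myeloid cells the number of members lay between 1 and 3, with 1 without Eµ-PRMT5/TCL1 spleen 2. The main share of all genes was 38.4%. The cause of these changes was not tested, and shares of all genes under each alternative are not given here.

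For the correlation with the share of G2/M cells, Prmt1 was at -0.42 with the level in cells of neither state, at 0.90 after centering on group means and at -0.56 without the 2 farthest libraries. Without the 2 farthest Prmt3 was at -0.44, Prmt6 at -0.50 and Carm1 at -0.35, and with the level in cells of neither state at -0.41, -0.27 and -0.67 (for Carm1, adjusted permutation p 0.108). Prmt7 was at -0.21 with the level in cells of neither state, at -0.27 without the 2 farthest libraries and at -0.20 with median UMIs per B cell in place of the share, a setting chosen after seeing the data. Leaving out each spleen gave 0.278 (without Eµ-PRMT5 spleen 4) to 0.913 (without Eµ-TCL1 spleen 1) for Prmt1 (in the latter with an adjusted permutation p of 0.0408), -0.713 (without Eµ-TCL1 spleen 2) to -0.42 for Prmt2, -0.162 to 0.201 for Prmt3 and -0.102 to 0.0903 for Prmt6. Centered on group means without Eµ-PRMT5 spleen 4, chosen after seeing the data, Prmt3 was at 0.379 and Prmt6 at 0.113.

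Between libraries of different groups, the correlation of deviations was -0.0714 to 0.183 (median 0.0774) for the same replicate number. For other numbers it was -0.188 to 0.169 (median -0.0217). The ranges overlapped, and whether the numbers pair libraries was not tested. With a replicate block 0 members passed in any group contrast, and Prmt1 in B cells of Eµ-PRMT5 minus Eµ-TCL1 spleens was at 0.73 (edgeR adjusted p 0.188). Carm1, Prmt6, myeloid Prmt2 and Prmt2 in G2/M lymphocytes rest on few UMIs, which limits their precision.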
